A study of Mus musculus with 4 samples.

Results

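The loci described here are those of Sox1, Sox2 and Sox9, which encode transcription factors of neural progenitors. Their members are the ChIP-seq peaks with a summit in an mm9 window around each gene: chr3:34350000-34750000 for Sox2, chr8:12300000-12500000 for Sox1 and chr11:112400000-112900000 for Sox9. The windows are fixed coordinates, and no peak value enters the rule. They held 52 of the 125330 peaks of the 4 lists on chromosomes 1 to 19 and X, of which 15 lay in the Sox2 window, 1 in the Sox1 window and 36 in the Sox9 window. By list, these were 13 of 28338 EGFP_OK peaks, 9 of 16604 Pax6 peaks, 9 of 30931 Etv6 peaks and 21 of 49457 H3K4me2 peaks.

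All 4 libraries were made from neural progenitor-like cells that had been derived from mouse embryonic stem cells of strain 129/SvJ and kept in EGF and FGF-2 to passages 15 to 18. For 3 of them the M2 antibody, which binds the FLAG tag, was used to precipitate the chromatin, and for 1 an antibody to H3K4me2, dimethylated lysine 4 of histone H3, which marks active and poised promoters and enhancers. The titles of 2 FLAG libraries name Pax6, a paired-box and homeobox factor, and Etv6, an ETS-family factor best known as a repressor, both in cells titled NS. The third FLAG title names N31, EGFP and OK but not the tagged protein, and that library is called EGFP_OK. The H3K4me2 title names N31, Oct4, EGFP and 0 hr. The antibody reads the tag, and the promoter that drives the tagged protein and its amount relative to the cells' own protein were not given in the sources used here. A difference between the EGFP_OK library and the Pax6 and Etv6 libraries cannot be told apart from one between cells titled N31 and NS. H3K4me2 was measured only in cells titled N31, so its relation to Pax6 and Etv6 peaks also crosses these titles.

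Each library is the only one of its group, and none is labelled as an input or other control, so the values have counting error alone and no test between groups was made. The libraries kept 5288154 tags (Pax6) to 24550365 tags (H3K4me2) after removal of duplicates, and 81% of the Pax6 tags were redundant against 16% to 39% of the others. A place with no listed peak is a place that the peak caller did not call, which is not the same as a place with no binding or no mark.

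As background, Sox proteins bind DNA through an HMG box, which bends the double helix in its minor groove. Sox1 and Sox2 are close relatives, and both hold neural progenitors in their undifferentiated state. Sox2 is also a core pluripotency factor of embryonic stem cells, and Sox1 is among the earliest markers of neural commitment. Sox9 belongs to another branch of the family and acts in neural stem cells and in the switch to glia, and outside the nervous system in cartilage and testis. Sox2 and Sox9 are known for regulatory elements spread over long distances around the gene. In the RefSeq gene order of GRCm38, Sox2 lies within the noncoding gene Sox2ot, with Dnajc19 and Atp11b as the nearest coding genes. Sox1 overlaps Sox1ot and has A230072I06Rik and Spaca7 as its neighbours, and Sox9 has Gm11677, with Kcnj2 beyond it, and Slc39a11. The gene table is of another build than the peak lists, so the place of each gene within its mm9 window was not used, and positions are given from the midpoint of the window.

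The promoters of Sox2 and Sox1 are shown because RefSeq promoters matched only these 2 of the 3 genes. Both sequences are from RefSeq, build GRCm38.p6, plus strand, and hold the 250 bases before the gene's start. The Sox2 stretch is chr3:34649745-34649994 and the Sox1 stretch chr8:12395269-12395518 in that build, which cannot be set against the mm9 peak positions. Capitals mark matches, on either strand, to the letters CCGGAA (ETS), ACAAAG and ACAATG (SOX), TAATTA (homeobox), ATGCAAA (POU) and GGGCGG (GC box).
Sox2: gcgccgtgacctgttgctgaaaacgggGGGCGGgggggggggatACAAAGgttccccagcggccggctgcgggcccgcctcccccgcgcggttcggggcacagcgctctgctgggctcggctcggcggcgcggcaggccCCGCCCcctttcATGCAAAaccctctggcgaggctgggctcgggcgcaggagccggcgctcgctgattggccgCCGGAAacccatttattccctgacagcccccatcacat
Sox1: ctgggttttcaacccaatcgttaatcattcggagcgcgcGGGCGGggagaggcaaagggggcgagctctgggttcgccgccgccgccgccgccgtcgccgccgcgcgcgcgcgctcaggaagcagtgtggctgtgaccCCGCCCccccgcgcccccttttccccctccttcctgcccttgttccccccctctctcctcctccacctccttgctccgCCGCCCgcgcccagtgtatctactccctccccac

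The stretches were alike in base composition, with 72% G and C for Sox2 and 71.2% for Sox1 against a median of 52.4% over 32851 promoters. In the window of 300 bases that adds 50 bases after the start, the ETS letters were found once at Sox2, 38 bases before the start, and not at Sox1. The letters ACAAAG were found once at Sox2 and not at Sox1, and neither promoter held ACAATG or TAATTA. Both held the POU letters once, 99 bases before the start at Sox2 and at Sox1 18 bases after it, beyond the printed stretch. The GC box letters were found 2 times at Sox2 and 3 times at Sox1. Of all promoters of that length, 14.9% held the ETS letters, 18.7% ACAAAG, 12.6% ACAATG, 5.29% TAATTA, 4.63% the POU letters and 35.7% the GC box letters.

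The peak counts differed between the 3 windows, which also differ in length (500 kb for Sox9, 400 kb for Sox2 and 200 kb for Sox1). Around Sox9 every list had 7 or more peaks, around Sox2 H3K4me2 and EGFP_OK had most of them, and around Sox1 there was a single EGFP_OK peak. Counts were set against the mean density of each list over chromosomes 1 to 19 and X, with exact 95% Poisson intervals of the count. The highest ratio was that of Pax6 in the Sox9 window, with 8 peaks or 2.54 times the list mean (1.1 to 5.01), and 12.4% of all tiles of 500 kb held at least as many Pax6 summits. Against the mean of chromosome 11 it was 2.18 times (0.939 to 4.29), an interval that includes the mean. The other lists in the Sox9 window had intervals that included the mean, at 1.3 times for EGFP_OK (0.524 to 2.69, 7 peaks), 1.19 for Etv6 (0.48 to 2.46, 7 peaks) and 1.49 for H3K4me2 (0.816 to 2.51, 14 peaks). At least as many summits were found in 36.7%, 38.8% and 29% of the tiles in that order. Against the mean of the window's own chromosome, the interval of every list in the 3 windows included the mean.

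**Figure D1:**
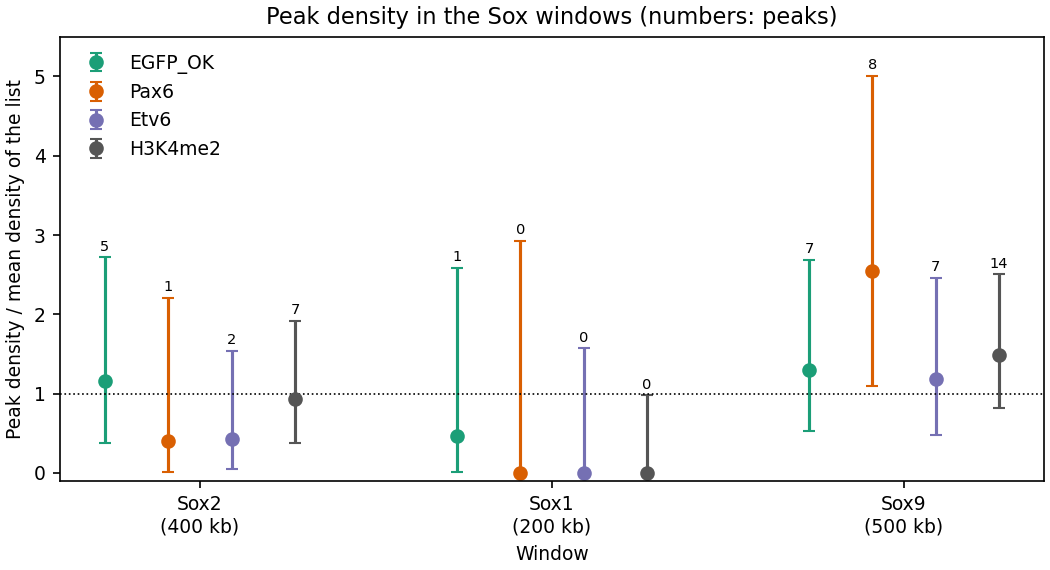
Peak density in each window divided by the mean density of the list (y axis), by window (x axis) and list (colour). Points are ratios, bars exact 95% Poisson intervals and numbers the peaks counted. The Pax6 interval of the Sox9 window (1.1 to 5.01) lies above the dotted line at the list mean, and that of H3K4me2 in the Sox1 window ends at 0.984. Against the mean of the window's own chromosome, which is not drawn, both intervals include the mean.

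In the Sox2 window the ratios were 1.16 for EGFP_OK (0.378 to 2.72, 5 peaks), 0.397 for Pax6 (0.0101 to 2.21, 1 peak), 0.426 for Etv6 (0.0516 to 1.54, 2 peaks) and 0.933 for H3K4me2 (0.375 to 1.92, 7 peaks). At least as many summits were held by 42.4%, 65.1%, 61.3% and 45% of the tiles of 400 kb in that order, so none of these counts stood apart. In the Sox1 window EGFP_OK had 1 peak, a ratio of 0.465 (0.0118 to 2.59), and 67.2% of the tiles of 200 kb held at least 1. No peak of Pax6 or Etv6 was listed there, where their list means would give 1.26 and 2.35 peaks, and 50.3% and 59.6% of the tiles held at least 1. H3K4me2 also had 0 peaks in the Sox1 window against 3.75 at the list mean (interval of the ratio 0 to 0.984, or 0 to 1.04 against the mean of chromosome 8), and 67% of the tiles held at least 1, so a window with none was not rare.

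**Figure D2:**
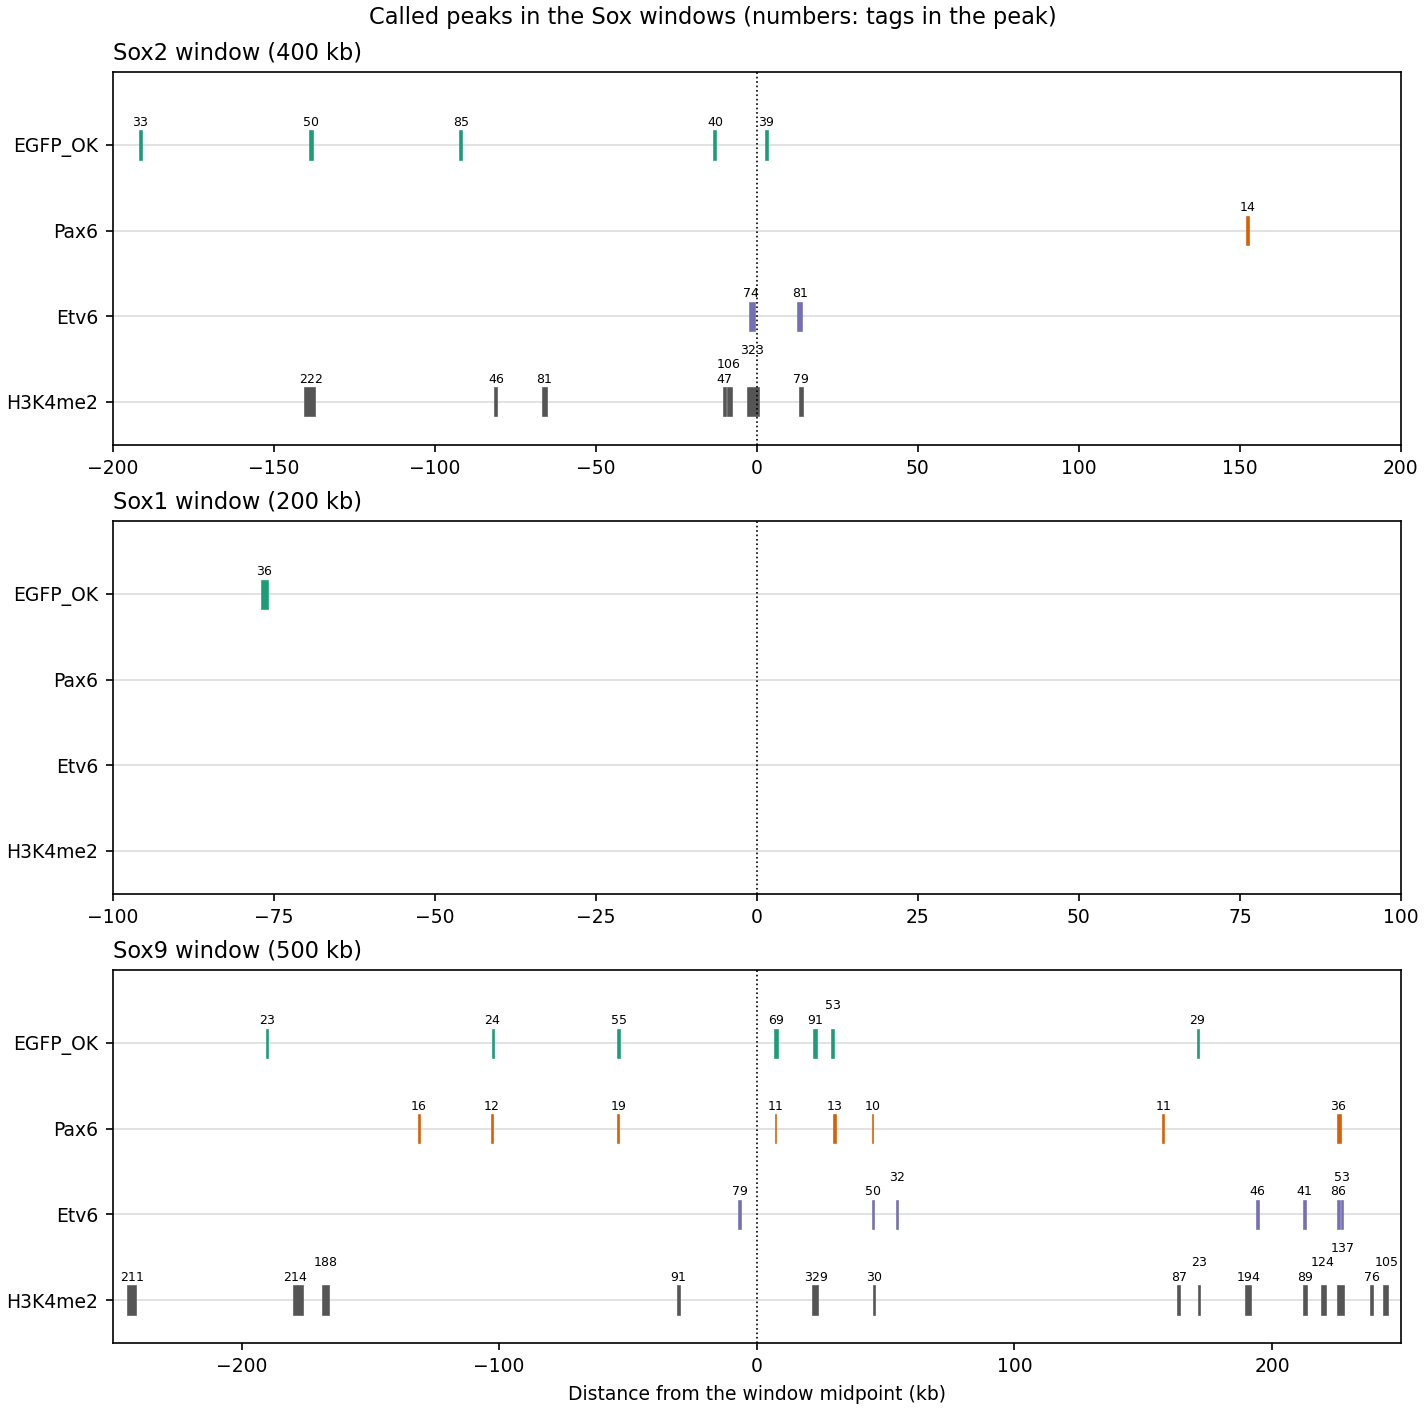
Called peaks of the 4 lists in the 3 windows, by distance from the window midpoint in kb (x axis, lower coordinates to the left). Each bar spans a peak to scale, and the number above it is its tag count. H3K4me2 peaks of the Sox2 window end near the midpoint, and the Sox1 window is nearly empty. In the Sox9 window many but not all Etv6 and H3K4me2 peaks lie toward the right end. EGFP_OK and Pax6 peaks coincide there at 4 places, from 103 kb below to 30.2 kb above the midpoint, and both lists also have peaks farther out.

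At Sox2, the marked chromatin lay around the midpoint and on its lower side. The widest H3K4me2 peak of the 3 windows, chr3:34546795-34550729, spanned 3935 bp across the Sox2 midpoint, with 323 tags and 4.83-fold enrichment over local background. Its normalised count, in tags per 1000000 kept tags, was 13.2 (11.8 to 14.7, exact 95% Poisson interval), and 93.7% of the H3K4me2 list was no wider. Others close by were chr3:34540812-34542271 with 106 tags and chr3:34539463-34540280 with 47 tags, 8.66 and 10 kb below the midpoint by their summits. Above the midpoint stood only chr3:34562973-34564416, with 79 tags and the highest fold of the Sox2 window, 8.61, at a score of 247.5.

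The remaining 3 H3K4me2 peaks of the Sox2 window lay 66 to 138 kb below the midpoint. Of these, chr3:34409521-34412871 was the strongest, with 222 tags and a score of 242.28. From 34564417 to the upper end of the window, over 186 kb, no H3K4me2 peak was listed. In all, H3K4me2 peaks covered 13.6 kb or 3.41% of the Sox2 window, against 3.6% of the genome.

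Both Etv6 peaks of the Sox2 window coincided with these marked places. One, chr3:34547621-34549307, held 74 tags, a normalised count of 3.07 (2.41 to 3.86), and its summit was 183 bp from that of the widest H3K4me2 peak. The other, chr3:34562342-34564042, held 81 tags, a normalised count of 3.36 (2.67 to 4.18), and its summit was 39 bp from that of the H3K4me2 peak above the midpoint. They were broad and of low fold enrichment for Etv6, at 4.11-fold and 4.22-fold, above 4.82% and 6.19% of the list. By score they stood above 37.6% and 26.5% of it, and 86.6% and 87% of Etv6 peaks were no wider. Neither had a Pax6 or EGFP_OK peak, which was also so for 50.9% of the list. Scaled by the kept tags, the Etv6 peaks would give 16.3 and 17.8 tags in the Pax6 library, where the weakest called peak had 10 tags. The scaling leaves out their width and low fold enrichment.

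Of the 5 EGFP_OK peaks at Sox2, 1 had its summit in an H3K4me2 peak, or 20% (0.505 to 71.6) against 26.9% of the list, and all 5 were without a Pax6 or Etv6 peak, as were 77% of the list. The strongest, chr3:34457676-34458571, held 85 tags, a normalised count of 3.95 (3.16 to 4.89), at 17.19-fold. It ranked 1301 of 28338 by score and 314 by fold enrichment, lay 91.8 kb below the midpoint, and had no Pax6, Etv6 or H3K4me2 peak. This was the only EGFP_OK peak of the 3 windows in the highest 10% of its list by score. The next by score, chr3:34411044-34412299 with 50 tags at 5.7-fold, lay inside the H3K4me2 peak 138 kb below the midpoint, with summits 158 bp apart. Those nearest the midpoint were weaker. The one at chr3:34552446-34553485 had 39 tags at 5.16-fold and a score of 52.2, above 4.65% of the list, and its summit stood 4.69 kb from the nearest Etv6 summit. The one at chr3:34536360-34537390 had 40 tags at 5.22-fold. The last of the 5, chr3:34358209-34359072 with 33 tags at 6.26-fold, lay 192 kb below the midpoint.

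Pax6 had a single peak in the Sox2 window, chr3:34701979-34702768, 152 kb above the midpoint. It held 14 tags, a normalised count of 2.65 (1.45 to 4.44), at 13.19-fold, and no peak of another list touched it. Its fold enrichment was above that of 79.9% of Pax6 peaks, and its score of 77.86 above that of 56.1%. Near the Sox2 midpoint no Pax6 peak was called, and the nearest Pax6 summit to the Etv6 peak there was 154 kb away.

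Around Sox1, the EGFP_OK peak chr8:12323014-12324106 held 36 tags, a normalised count of 1.67 (1.17 to 2.32), at 7.81-fold and a score of 77.54. It stood 76.5 kb below the midpoint and was of ordinary strength, above 37.8% of the list by score and 63.3% by fold enrichment. The window around the midpoint was empty in every list, and no H3K4me2 peak was listed over 542 kb, from 12129005 to 12670627. Stretches that long between neighbouring H3K4me2 peaks were 1.3% of the intervals of the list, but they took up 29.5% of the length of the chromosomes.

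At Sox9, the strongest signal by tags and score was a marked site on the upper side of the midpoint that EGFP_OK shared. The H3K4me2 peak chr11:112671607-112673808 held 329 tags, a normalised count of 13.4 (12.0 to 14.9), at 8.28-fold. It ranked 315 of 49457 by score and was the only H3K4me2 member in the highest 10% of its list by that measure. By fold enrichment it stood at percentile 86. The EGFP_OK peak chr11:112671995-112673314 lay wholly inside it with 91 tags, a normalised count of 4.23 (3.41 to 5.20), at 10.74-fold, with the highest EGFP_OK score of the Sox9 window, 239.6. Their summits were 245 bp apart, 22.6 and 22.9 kb above the midpoint. No Pax6 or Etv6 peak was called there. Scaled by kept tags, the EGFP_OK peak would give 22.4 tags in Pax6 and 102 in Etv6, both above the weakest called peaks of 10 and 18 tags. This scaling takes the libraries as equally enriched, so it does not show that a peak would be called, and why none was called was not tested.

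Over the midpoint of the Sox9 window itself, no H3K4me2 peak was listed from 112620204 to 112671606, a stretch of 51.4 kb that nonetheless held peaks of each FLAG list. The Etv6 peak nearest the midpoint, chr11:112642671-112643884, held 79 tags, a normalised count of 3.28 (2.60 to 4.09), at 4.36-fold, with its summit 6.55 kb below the midpoint. Like the Etv6 peaks at Sox2 it was of low fold enrichment, above 7.85% of its list. By score, at 115.44, it stood above 63.5% of that list. On the other side, 7.34 kb above the midpoint, stood the EGFP_OK peak chr11:112656603-112658025 with 69 tags at 8.05-fold, which contained the Pax6 peak chr11:112657020-112657626 with 11 tags at 10.56-fold. The nearest H3K4me2 peak below, chr11:112618937-112620203, had 91 tags and the highest H3K4me2 fold of the 3 windows, 10.33, and no FLAG summit.

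EGFP_OK and Pax6 peaks coincided at 4 places, all of them in the Sox9 window, all outside H3K4me2 and none with an Etv6 peak. These sites were singled out after their values were seen. By score and fold enrichment the strongest in both lists was 53.6 to 53.7 kb below the midpoint, where the EGFP_OK peak chr11:112595905-112597015 had 55 tags at 11.4-fold and the Pax6 peak chr11:112595843-112596676 had 19 tags at 19.82-fold. Their summits were 54 bp apart, and the Pax6 peak ranked 204 of 16604 by fold enrichment and 3342 by score. A weaker pair lay 103 kb below the midpoint, at chr11:112547051-112547835 in EGFP_OK with 24 tags at 5.58-fold and chr11:112546820-112547542 in Pax6 with 12 tags at 13.19-fold, with summits 50 bp apart. The pair nearest the midpoint, given above, had summits 86 bp apart. In the remaining pair the summits were 723 bp apart, with 53 tags at 7.4-fold in the EGFP_OK peak chr11:112678758-112680036 and 13 tags at 11.88-fold in the Pax6 peak chr11:112679601-112680703.

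Pax6 and Etv6 peaks overlapped at 2 places, both in the Sox9 window. At the upper end, 226 kb above the midpoint, the Pax6 peak chr11:112875186-112876583 held 36 tags, a normalised count of 6.81 (4.77 to 9.42), at 11.08-fold, the highest Pax6 tag count and score of the 3 windows. It overlapped the Etv6 peak chr11:112875150-112876534 with 86 tags, a normalised count of 3.57 (2.86 to 4.41), at 6.46-fold, with summits 138 bp apart. Both summits were inside the H3K4me2 peak chr11:112875250-112877959 with 137 tags, which also held the summit of a second Etv6 peak, chr11:112876590-112877620, with 53 tags. The other shared place was 44.9 to 45.0 kb above the midpoint, where chr11:112694560-112695177 had 10 tags in Pax6, as few as any called Pax6 peak, and chr11:112694563-112695556 had 50 tags at 8.98-fold in Etv6. Their summits were 143 bp apart and lay outside the small H3K4me2 peak that the Etv6 peak touched.

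The other FLAG peaks of the Sox9 window stood alone or only with H3K4me2. Pax6 alone was found at chr11:112518505-112519251, with 16 tags at 18.47-fold, above 97.8% of its list by fold, and at chr11:112807150-112807985 with 11 tags at 10.56-fold. Etv6 without another FLAG peak was found at 3 further places with 32 to 46 tags, of which chr11:112862118-112863066 had its summit in an H3K4me2 peak. EGFP_OK without another FLAG peak was found at chr11:112459541-112460124 with 23 tags and, with its edge on a small H3K4me2 peak, at chr11:112820682-112821631 with 29 tags.

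H3K4me2 at Sox9 was gathered on the upper side, with 10 of the 14 peaks above the midpoint and 8 of these from 164 to 244 kb above it. The peaks of that upper end held 23 to 194 tags. Most tags and the highest score there, 314.65, were those of chr11:112839565-112841931, at 7.32-fold and 191 kb above the midpoint. The lower side had 4 peaks, including the wide and weakly enriched chr11:112470049-112473859 with 3811 bp, 214 tags and 3.1-fold, the lowest fold of all members. In total H3K4me2 covered 27.4 kb or 5.47% of the Sox9 window, against 3.6% of the genome. Etv6 followed the same side, with 6 of 7 peaks above the midpoint, while EGFP_OK had 4 of 7 and Pax6 5 of 8.

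Merging overlapping peaks gave 37 sites, 24 of them with a FLAG peak. No site had peaks of all 3 FLAG lists and 6 had 2, each in the Sox9 window. The whole lists were not merged in this way, so these site counts have no background share beside them. In the Sox2 window all 8 FLAG sites belonged to 1 FLAG list each.

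Fewer Pax6 peaks of the windows had an Etv6 partner than in the whole Pax6 list. Overlap with Etv6 was found for 2 of the 9 peaks, or 22.2% (exact 95% binomial interval 2.81 to 60), against 72.6% of the list, which lies above that interval. An EGFP_OK peak overlapped 4 of 9, or 44.4% (13.7 to 78.8), against 20.1% of the list, which lies inside it. Pax6 peaks with EGFP_OK and without Etv6 were 4 of 9, or 44.4% (13.7 to 78.8), against 3.52% of the list. This combination was taken from the 4 coinciding sites after they were seen, so its distance from the list share is no support for them. Pax6 peaks with Etv6 and without EGFP_OK were 2 of 9 against 56% of the list, and those with neither 3 of 9, or 33.3% (7.49 to 70.1), against 23.9%.

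The background for these shares moved with the peaks it was taken from. Pax6 peaks with scores from 51.37 to 116.96, the range of the members, had an Etv6 peak in 68.8% of cases and an EGFP_OK peak in 18.7%. On chromosome 11 these shares were 77.2% and 22.8%. Outside H3K4me2, where 8 of the 9 members had their summits, 63.3% of the Pax6 list overlapped Etv6 and 11.7% EGFP_OK, against 1 and 4 of the 8 members. These peaks lie in 2 windows, 8 of them in 1, and are not independent of each other, so the intervals cover counting error only.

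**Figure D3:**
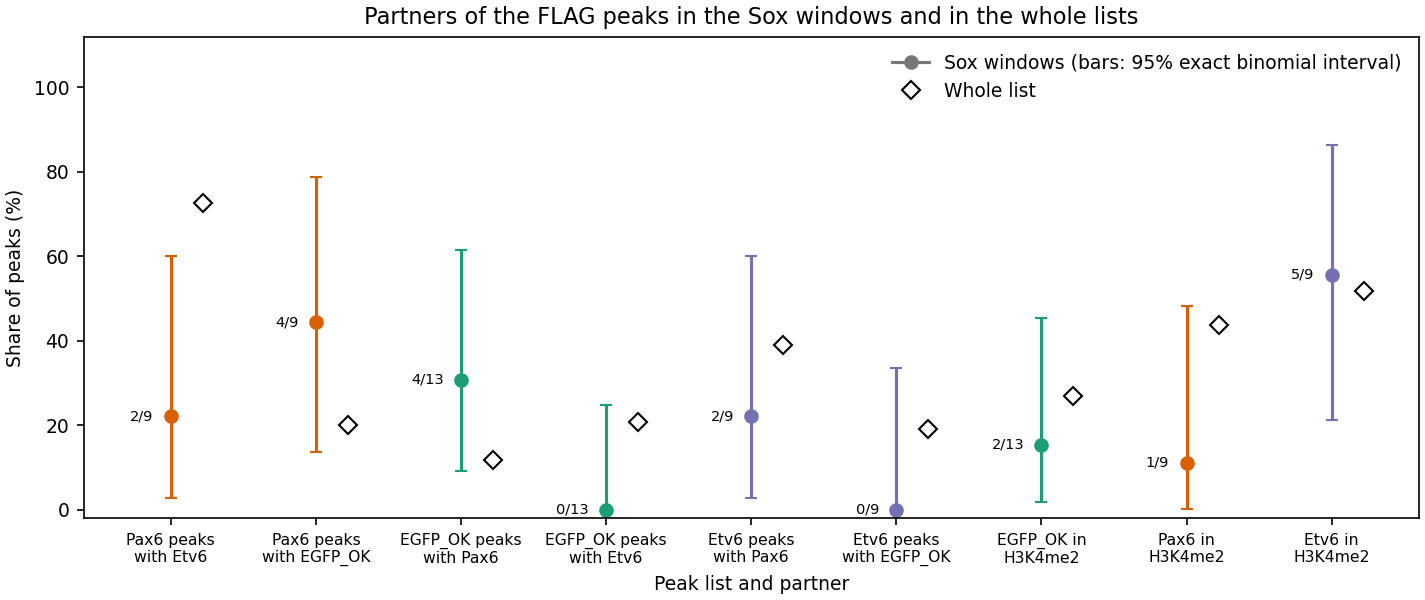
Share of FLAG peaks in the Sox windows with a partner (y axis, percent), for each list and partner (x axis). Filled points are the windows with exact 95% binomial intervals and counts, open diamonds the whole list. For Pax6 with Etv6 (2 of 9) the diamond at 72.6% lies above the interval, and elsewhere the diamonds lie inside.

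From the EGFP_OK side, a Pax6 peak overlapped 4 of 13 peaks, or 30.8% (9.09 to 61.4), against 11.7% of the list, 11.3% of EGFP_OK peaks with scores in the range of the members and 13% of those on chromosome 11. Outside H3K4me2 it was 4 of 11 against 5.4% of the list. All 4 lacked Etv6, a combination found in 2.09% of the list, or 1.25% when the summit was also outside H3K4me2. These combinations too were chosen after the 4 sites were seen, so the low list shares are description only. Without any other FLAG peak were 9 of the 13, or 69.2% (38.6 to 90.9), against 77%. An Etv6 peak overlapped 0 of the 13 (0 to 24.7), against 20.9% of the list, and an EGFP_OK peak 0 of the 9 Etv6 peaks (0 to 33.6), against 19.2%, so at these numbers a lower share than in the lists was not detectable. For EGFP_OK with Etv6 the background was 20.7% at scores in the range of the members and 7.64% outside H3K4me2. On chromosome 11 it was 29%, above the limit of 24.7, but the members on that chromosome were 0 of 7 (0 to 41). Etv6 peaks met Pax6 at 2 of 9, or 22.2% (2.81 to 60), against 38.9% of the list. The other 7 of 9, or 77.8% (40 to 97.2), had no other FLAG peak, against 50.9%.

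Missing partners were weighed against depth only by scaling tags with the ratio of kept tags, which takes the libraries as equally enriched. Peak width and fold enrichment do not enter, so a scaled count above the weakest called peak does not show that a peak would be called. For the 7 Pax6 peaks with no Etv6 peak the scaled counts were 50.1 to 86.5 tags in the Etv6 library, where the weakest called peak had 18. For the 9 EGFP_OK peaks with no Pax6 peak they were 5.66 to 22.4 tags in the Pax6 library, and 3 of the 9 reached the 10 tags of its weakest peak. Of the 7 Etv6 peaks with no Pax6 peak, 5 reached it. At the remaining places the scaled counts were under that level. That level is no strict limit, since Pax6 was called with 12 tags at the EGFP_OK peak chr11:112547051-112547835, which held 24 tags in a library with 4.07 times the kept tags.

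In their relation to H3K4me2 the FLAG peaks of the windows were near or below their lists. For Pax6 and Etv6, from cells titled NS, the mark was read from cells titled N31. Etv6 summits lay in an H3K4me2 peak at 5 of 9, or 55.6% (21.2 to 86.3), against 51.9% of the list. For EGFP_OK it was 2 of 13, or 15.4% (1.92 to 45.4), against 26.9%, and for Pax6 1 of 9, or 11.1% (0.281 to 48.2), against 43.7%. Each list share lies inside its interval. Of the 21 H3K4me2 peaks 6 held a FLAG summit, or 28.6% (11.3 to 52.2), against 40.3% of the list. Etv6 summits were in 4 of the 21 against 31.9% of the list, EGFP_OK summits in 2 against 15.3% and Pax6 summits in 1 against 14.5%.

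The peaks of the windows spread widely over their lists in strength. By score, EGFP_OK members ran from percentile 0.93 to 95.4 and H3K4me2 members from 5.37 to 99.4. Pax6 members lay between 4.02 and 83.2, those of Etv6 between 12.4 and 72.8. The median member stood at percentile 47.1 for EGFP_OK, 38.7 for Pax6, 46 for Etv6 and 53 for H3K4me2. By fold enrichment it stood at 35.2, 67.5, 39.2 and 46.6 in that order, and all 9 Pax6 members were at 50.8 or higher. The median tag count of the members was 40 in EGFP_OK (range 23 to 91) against 47 in the list. It was 13 in Pax6 (10 to 36) against 19, 53 in Etv6 (32 to 86) against 54, and 105 in H3K4me2 (23 to 329) against 120.

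**Figure D4:**
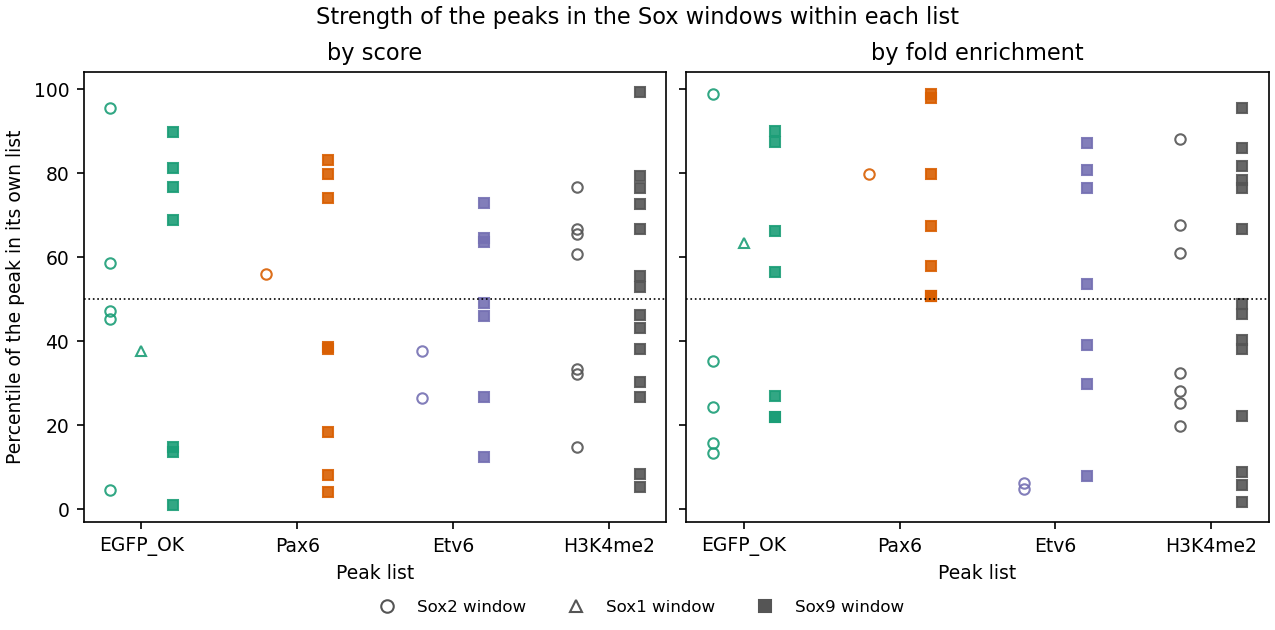
Percentile of each peak of the windows within its own list (y axis), by score on the left and by fold enrichment on the right, for the 4 lists (x axis) and 3 windows (symbol). The dotted line is the middle of the list. The EGFP_OK peak of the Sox2 window at percentile 95.4 and the H3K4me2 peak of the Sox9 window at 99.4 stand highest by score, and the Pax6 peaks lie at or above the middle by fold enrichment.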

How the data were processed

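Each file is a peak list of 1 library. Per the file headers, the authors called peaks with MACS 1.4.2 on each library without a control, at p up to 1e-05 with an effective genome of 1.87e+09 bases, band width 300 bp, a regional background of 10 kb and at most 1 tag of 75 bp per position. The submitters' processing notes also name CASAVA 1.8.1, BWA 0.6.2 and the build mm9. Tags are deposited counts without normalization. The deposited score is 10 times the −log10 of the p-value, and the deposited fold enrichment is the ratio of the summit to local background, both the authors' own values, used only within a list.

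Summits were start + summit − 1. Overlap meant at least 1 bp, and marked meant a summit inside an H3K4me2 peak. Densities used the length up to the last peak of each chromosome (2638 Mb in all), in which unmappable sequence is included, as it is in the tiles. Normalised counts are tags per 1000000 kept tags. Intervals (95%) are exact Poisson or binomial and cover counting error only. Peaks on chromosome Y and unplaced sequences (38 EGFP_OK, 42 Pax6, 53 Etv6 and 111 H3K4me2) were left out. The work used Python 3.11.15 with scipy 1.17.1, numpy 2.4.6, pandas 2.3.3 and matplotlib 3.10.9, and the counting was tested on simulated lists. Sites named one by one are the 3 highest-scoring peaks of each list per window, the peaks nearest the midpoint and any site in all 3 FLAG lists, and the others were named after their values were seen. The windows, lists and motifs were chosen with earlier results of these data known. RefSeq promoters matched 2 of the 3 genes. Other Sox genes were not analysed here for want of an mm9 annotation.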

Additional observations from a re-analysis of the deposited data

How the results depend on the processing

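No paired analysis was possible because each group has 1 library and no test was made. Of 97 recomputed values 82 stayed within the 95% interval of the reported one. Many of these could hardly move. Counts of 0 stayed at 0 when peaks were taken out, and any overlap with the window gave the same counts as the summits. The intervals of small counts also admit most values, so the tally does not measure how firm the results are. With a score of at least 100 the density ratios of Pax6 and Etv6 at Sox2 and of EGFP_OK at Sox1 were 0, and 50% of Pax6 summits (1 of 2) lay in H3K4me2. At equal list length the ratios of Etv6 at Sox2 and EGFP_OK at Sox1 were 0. In the middle 50% of the windows the ratios of Pax6 at Sox2 and EGFP_OK at Sox1 were 0, that of H3K4me2 at Sox9 was 0.64, 0% of Pax6 summits lay in H3K4me2 and 80% of Pax6 peaks (4 of 5) overlapped EGFP_OK. With summits within 100 bp required, 0% of Pax6 peaks met Etv6 and 0% of Etv6 peaks met Pax6, against 43.9% and 23.6% of the lists. The overlap of EGFP_OK and Pax6 also varied with the setting. With overlap of at least 50% of both peaks, 2 of 9 Pax6 peaks (22.2%) met EGFP_OK, against 15.6% of the list. With summits within 100 bp it was 3 of 9, or 33.3% against 8.64%. From the EGFP_OK side, 2 of 13 peaks (15.4%) met Pax6 at that 50% overlap, against 9.16%. At a score of at least 100 it was 1 of 6, or 16.7% against 5.19%. Each of these restrictions leaves fewer peaks or fewer overlaps. Against the mean of its own chromosome the density of Pax6 at Sox9 was 2.18 times (0.939 to 4.29), and the limit for H3K4me2 at Sox1 was 1.04, so neither interval excluded the mean. In the same setting H3K4me2 at Sox9 fell from 1.49 to 0.993, Etv6 at Sox9 from 1.19 to 0.818 and EGFP_OK at Sox2 from 1.16 to 0.724, turning to the other side of the mean. Per 1000000 tags before removal of duplicates the median count fell from 1.86 to 1.13 for EGFP_OK and from 2.46 to 0.472 for Pax6, these libraries having lost 39% and 81% of their tags as duplicates. Depth limits the Pax6 list most, where members rested on 10 to 36 tags.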

Other observations

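Peaks just outside the windows were as follows. Above the Sox2 window the next H3K4me2 peak was chr3:35123976-35125394 with 69 tags, so that 560 kb above chr3:34562973-34564416 had none, and the next EGFP_OK peak, chr3:35239069-35240034, had 28 tags and lay 490 kb past the edge, after 686 kb with none. Stretches of at least 560 kb were 1.26% of the intervals between H3K4me2 peaks but held 29.1% of the chromosomes' length. Those of at least 686 kb were 1.61% of the intervals between EGFP_OK peaks and held 23.8%. Just below the Sox2 window, 6.97 kb outside by its summit, stood the H3K4me2 peak chr3:34341679-34345341 with 375 tags, more than any inside, and 5.62 kb outside the EGFP_OK peak chr3:34344009-34344997 with 42 tags. Pax6 and Etv6 peaks met at the first place above the Sox2 window, with 18 tags at 18.66-fold in Pax6 (chr3:34942539-34943126) and 27 tags at 6.89-fold in Etv6 (chr3:34942362-34943139). They also met at the first place above the Sox1 window, with 17 tags at 15.65-fold in Pax6 (chr8:12609384-12610344) and 47 tags at 9.4-fold in Etv6 (chr8:12609458-12610524), 110 kb past the edge. Such overlap is common, as 72.6% of the whole Pax6 list had an Etv6 peak. The first Pax6 and first Etv6 peaks below each window and above the Sox9 window did not overlap each other. Outside the Sox9 window, EGFP_OK peaks on both sides were stronger than those inside by fold enrichment, with 16.41-fold at chr11:112362781-112363786 and 17.35-fold at chr11:113153254-113154203 against at most 11.4-fold inside.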
